A study of Mus musculus with 30 samples.

Results

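A set of 7 genes of cholesterol synthesis and its feedback control was followed through RNA-seq of cells sorted from the mouse medial prefrontal cortex (mPFC). These were the 6 enzyme genes Hmgcs1, Idi1, Fdft1, Sqle, Cyp51 and Dhcr7 and the regulator gene Insig1, taken by symbol as 7 of the 23993 genes measured. The set had been named for synthesis and uptake, but none of the 7 encodes a receptor or carrier that takes cholesterol into a cell, so they are called synthesis genes here and 8 genes of uptake and trafficking are counted separately.

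Cells were taken by FACS for the red reporter tdTomato from C57BL/6 mice heterozygous for it. The reporter (Ai9) was switched on by a Cre recombinase driven from the Sst gene (somatostatin) or the Pvalb gene (parvalbumin), so a cell that had expressed either gene at any earlier time could carry the label, and the controls and stressed mice all carried the reporter. The mice were 6 to 12 weeks old. The groups with values were non-stressed Sst females (7 libraries), non-stressed Sst males (7 libraries), Sst males after 14 days of chronic unpredictable stress, CUS (3 libraries), and non-stressed Pvalb males (7 libraries). A further 6 samples in the labels, among them all 3 stressed Sst females, were not analysed here. Of the 7 non-stressed Sst males, 4 had sample titles with a serial number ("numbered"), as did all Pvalb males and all females but replicate 7. The title of that female holds neither a number nor a date, and it was counted as numbered. The other 3 non-stressed Sst males had titles that look like dates ("dated"), as did all 3 CUS libraries. The labels do not say what the kind of title stands for, nor whether the libraries of a group came from separate mice, so the p-values below measure the spread between libraries, which may be partly technical.

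Cells make cholesterol from acetyl-CoA in a long chain of reactions. Hmgcs1 encodes the synthase that forms HMG-CoA early in the chain, Idi1 an isomerase of the small isoprenoid units, Fdft1 the squalene synthase that commits the chain to sterols, Sqle the squalene epoxidase that inserts the first oxygen, Cyp51 the lanosterol demethylase, and Dhcr7 the reductase that turns 7-dehydrocholesterol into cholesterol. When sterol in the endoplasmic reticulum falls, the transcription factor SREBP-2 is released to the nucleus and raises the transcription of these enzymes. Insig1 encodes the protein that holds back this release when sterol is plentiful, and is itself a target of the same factor. In the brain, cholesterol is made locally, and astrocytes and myelin-forming oligodendrocytes make much of it.

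The genes lie apart from each other in the genome (RefSeq, GRCm38.p6): Hmgcs1 at chr13:119690351-119708260, Idi1 at chr13:8885606-8892396, Fdft1 at chr14:63145150-63181687, Sqle at chr15:59315092-59331193, Cyp51 at chr5:4080674-4104697, Dhcr7 at chr7:143823167-143848410 and Insig1 at chr5:28071412-28078662. For 5 of the 7 a promoter window was at hand, the 250 bases before an annotated transcription start. The 5 windows are shown because their genes ranked differently in 1 numbered male sample described below. Among the numbered males it was the highest in Hmgcs1, Cyp51 and Insig1 and the lowest in Idi1 and Dhcr7. Dhcr7 was far below the others (6.01 FPKM against 22.1 and 20.3), but Idi1 was not (7.84 against 11.96 and 7.96). Each is written 5′ to 3′ on the strand of its gene. Capitals mark every match on either strand to 1 of 2 motifs, the sterol response element that SREBP binds (letters TCACNCCAC) and the NF-Y box (CCAAT, or ATTGG read on the other strand).
Hmgcs1, chr13:119690101-119690350, plus strand: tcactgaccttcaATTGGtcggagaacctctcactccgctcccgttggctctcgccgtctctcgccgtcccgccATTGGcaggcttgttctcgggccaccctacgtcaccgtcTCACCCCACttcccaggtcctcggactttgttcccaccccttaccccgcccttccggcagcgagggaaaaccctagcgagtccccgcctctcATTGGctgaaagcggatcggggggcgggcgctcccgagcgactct
Cyp51, chr5:4104698-4104947, minus strand: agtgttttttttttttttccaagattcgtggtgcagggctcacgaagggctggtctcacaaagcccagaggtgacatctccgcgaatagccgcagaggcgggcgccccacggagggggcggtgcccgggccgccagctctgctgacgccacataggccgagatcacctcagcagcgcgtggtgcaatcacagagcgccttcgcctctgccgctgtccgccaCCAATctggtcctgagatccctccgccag
Insig1, chr5:28071162-28071411, plus strand: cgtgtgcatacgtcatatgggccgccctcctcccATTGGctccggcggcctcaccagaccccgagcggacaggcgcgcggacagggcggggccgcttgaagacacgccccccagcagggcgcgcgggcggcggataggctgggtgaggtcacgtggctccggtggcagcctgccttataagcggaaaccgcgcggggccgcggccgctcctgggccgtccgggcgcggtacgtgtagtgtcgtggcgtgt
Idi1, chr13:8885356-8885605, plus strand: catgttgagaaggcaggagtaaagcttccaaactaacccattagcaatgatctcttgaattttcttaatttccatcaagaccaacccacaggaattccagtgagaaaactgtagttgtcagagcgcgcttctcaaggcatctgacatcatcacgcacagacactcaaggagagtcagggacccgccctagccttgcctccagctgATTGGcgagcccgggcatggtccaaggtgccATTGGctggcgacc
Dhcr7, last of 3 annotated starts, chr7:143829964-143830213, plus strand: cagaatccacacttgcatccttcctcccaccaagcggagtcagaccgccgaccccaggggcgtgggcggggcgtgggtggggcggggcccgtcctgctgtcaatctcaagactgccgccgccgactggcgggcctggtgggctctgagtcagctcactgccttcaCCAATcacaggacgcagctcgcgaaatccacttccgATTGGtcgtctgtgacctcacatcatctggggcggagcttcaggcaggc
The sterol response element in these exact letters stood in 1 of the 5 genes, Hmgcs1, as TCACCCCAC from base -137 to base -129 before the start. In the same kind of window 1.22% of 27025 genes held it. The NF-Y box stood in all 5, with 3 copies in Hmgcs1, against 37.5% of genes. For Dhcr7 it stood in the window of the last start, printed here, and in neither of the windows of the other starts. The GC box bound by Sp1 (GGGCGG, both strands, not in capitals) stood in all 5 as well, against 35.4%. Neither motif overlapped a sterol response element in these windows. A match is a description of letters, and a window without one says nothing about binding.

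Values were FPKM, fragments scaled to transcript length and library total, so levels can be compared between genes. The libraries were checked first. One pair of male Sst libraries (replicates 0 and 1) and one pair of Pvalb libraries (replicates 0 and 2) were near-identical, with an SD of the log2 ratio between them of 0.0212 and 0.0170 over genes, where the next closest library stood at 0.267 and 0.225. Each pair was averaged and counted as 1 sample, which left 22 samples. The upper quartile of FPKM was alike in all libraries (9.50 to 10.6), and small RNA genes held 53.7 to 75.9% of all FPKM in the dated libraries against 1.87 to 8.29% in the numbered ones. Xist, made from the inactive X of females, was on in 3 of the 7 Pvalb libraries labelled male. The study's methods give a general range of reads per sample, but the depth of each library is unknown.

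Markers of the labelled cells were low throughout. Gad1 and Gad2, which make the transmitter GABA, did not exceed 2.05 and 4.33 FPKM in any sample, and Slc32a1, its vesicular carrier, did not exceed 1.84. Pvalb stood at 0.890 to 5.07 FPKM in the samples labelled Pvalb. Sst stood at 4.18 to 49.3 FPKM in the females labelled Sst, at 0 to 6.02 in the non-stressed males labelled Sst and at 12.5 to 30.5 in the samples labelled Pvalb, where it was highest on average. The 11 microglia markers summed to 3034 to 11321 FPKM per sample and the 8 astrocyte markers to 561 to 1998, against 34.1 to 296 for the 10 interneuron markers. On the scale of mean log2(FPKM + 1) over a list, microglia markers stood at 7.86 to 9.58 and interneuron markers at 0.83 to 2.47. The values below therefore describe the sorted material as deposited, and in bulk samples fewer cells of a type and less RNA per cell cannot be told apart.

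All 7 genes were well above the expression limit of 0.4 FPKM in every sample, from 5.77 FPKM (Sqle in a dated male) to 74.6 (Hmgcs1 in a numbered male). In the Sst females the order of the levels was Insig1 (mean 62.3 FPKM), Fdft1 (50.8), Sqle (40.5), Hmgcs1 (39.5), Dhcr7 (35.6), Cyp51 (27.5) and Idi1 (15.2). Idi1 and Cyp51 kept the last places in all 7 females, whereas Sqle exceeded its neighbour Hmgcs1 in only 3 of 7, so that those neighbours were not separated. In the Pvalb males Fdft1 came first (51.2 FPKM) in 6 of 6 samples, followed by Dhcr7 (36.1) and Insig1 (35.8), which did not separate: Dhcr7 exceeded Insig1 in 2 of 6. Idi1 again came last (11.5). In the CUS males Insig1 (39.4), Fdft1 (36.7) and Hmgcs1 (35.9) led, and Sqle (13.5) and Dhcr7 (13.3) came last.

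**Figure D1:**
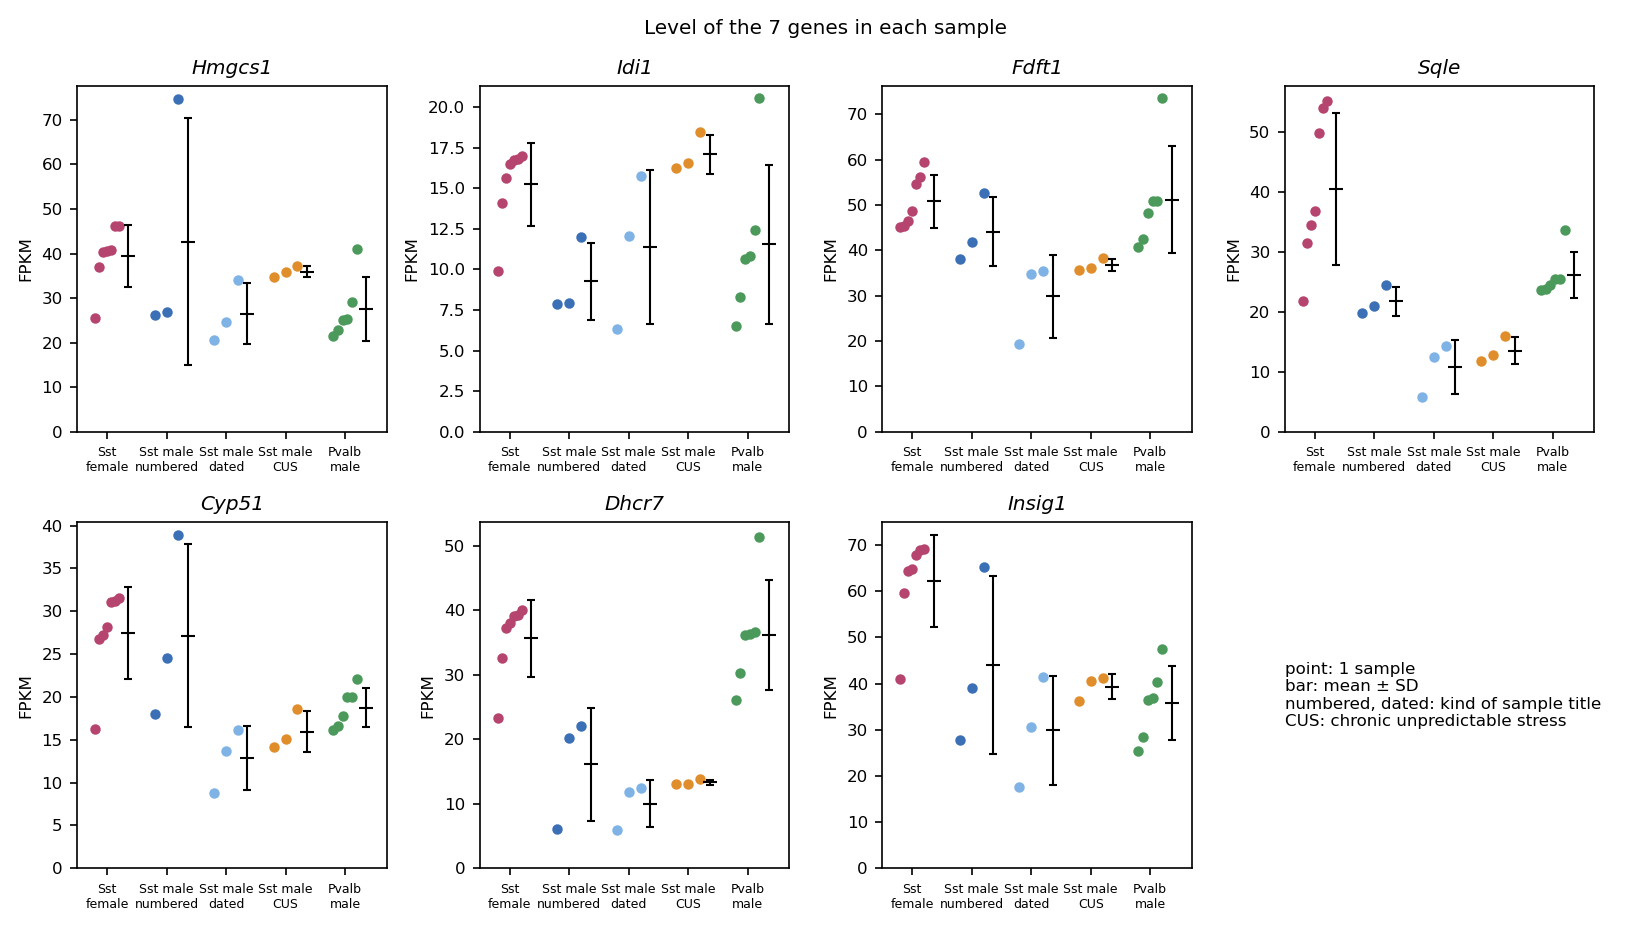
FPKM (y axis, from 0) of the 7 genes in the 22 samples, by group (x axis), with 1 point per sample, averaged pairs counted once, and the mean with its SD beside the points. Dhcr7 lies between 23.3 and 40.1 in all Sst females and at or below 22.1 in all Sst males, while Hmgcs1 overlaps between them, with 1 numbered male sample at 74.6.

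Hmgcs1, at the head of the chain, ranged from 25.5 to 46.1 FPKM in the females, with a median of 40.6. In the numbered males it was 74.6 in the averaged pair, 27.0 and 26.3. The dated males had 20.7, 34.0 and 24.7, and the CUS males 35.9, 34.8 and 37.2. In the Pvalb males it ranged from 21.6 to 41.1 with a median of 25.2. The averaged male pair thus lay above every other sample, and the other non-stressed males labelled Sst lay below 6 of the 7 females.

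Idi1 had the lowest mean of the set in the females, the numbered males and the Pvalb males. It ranged from 9.87 to 17.0 FPKM in the females (median 16.5), stood at 7.84, 11.96 and 7.96 in the numbered males and at 6.34, 15.7 and 12.04 in the dated males. The CUS males had 16.3, 18.5 and 16.5 FPKM. The Pvalb males ranged from 6.51 to 20.6 (median 10.7). In all, 6 of the 7 females were above all numbered males.

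Fdft1 ranged from 45.1 to 59.4 FPKM in the females (median 48.6) and from 40.8 to 73.5 in the Pvalb males (median 49.6). The numbered males had 52.6, 38.0 and 41.8, the dated males 19.3, 35.4 and 34.8, and the CUS males 38.2, 36.2 and 35.7. All dated and CUS males were below all females.

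Sqle had its lowest values in the dated libraries. It ranged from 21.8 to 55.1 FPKM in the females (median 36.7) and from 23.7 to 33.7 in the Pvalb males (median 25.0). The numbered males had 24.4, 19.8 and 20.9, while the dated males had 5.77, 12.5 and 14.2 and the CUS males 16.0, 11.8 and 12.9. Thus 6 of 7 females were above every male labelled Sst, and the remaining one lay within the numbered males.

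Cyp51 ranged from 16.2 to 31.6 FPKM in the females (median 28.1). The numbered males had 38.9, 18.0 and 24.6, the dated males 8.80, 16.2 and 13.7, and the CUS males 18.6, 15.0 and 14.2. The Pvalb males ranged from 16.1 to 22.1 (median 18.9). The averaged male pair, at 38.9, lay above all females, and the other numbered males lay within the female range. All dated males lay below the lowest female.

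Dhcr7, the last enzyme of the set, was the 1 member whose females lay above all males labelled Sst. It ranged from 23.3 to 40.1 FPKM in the females (median 37.9). The numbered males had 6.01, 22.1 and 20.3, the dated males 5.90, 12.4 and 11.8, and the CUS males 13.0, 13.0 and 13.8. In the Pvalb males, however, it ranged from 26.1 to 51.3 (median 36.2), within or above the range of the Sst females.

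Insig1, the sterol-regulated brake, ranged from 41.0 to 69.1 FPKM in the females (median 64.8). The numbered males had 65.4, 27.7 and 39.0, the dated males 17.7, 41.3 and 30.7, the CUS males 41.3, 40.6 and 36.2, and the Pvalb males 25.3 to 47.5 (median 36.6). All females but replicate 7 were above all males but the averaged pair, and that pair lay within the female range.

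Single samples stood apart over the whole set. Female replicate 7 was the lowest of the 7 females in 7 of 7 genes, and dated male replicate 5 was the lowest of all 22 samples in 7 of 7. The averaged Pvalb pair was the highest Pvalb sample in 6 of 7 genes (all but Cyp51). The averaged male Sst pair was not uniformly high: it led the numbered males in 5 genes and came last in Idi1 and Dhcr7. Its Hmgcs1 FPKM was 12.4 times its Dhcr7 FPKM, whereas this ratio was 0.995 to 1.42 in the females, 1.22 and 1.30 in the other numbered males, 2.09 to 3.50 in the dated males, 2.67 to 2.75 in the CUS males and 0.590 to 1.12 in the Pvalb males.

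The same samples stood apart in markers of other cell types. Female replicate 7 had the lowest astrocyte sum of the females (831 FPKM, the other 6 at 1362 to 1412) and the highest microglia sum (5571, the others at 3034 to 4151). Dated male replicate 5 had the lowest astrocyte sum (561) and the highest microglia sum (11321) of all 22 samples. The averaged male pair had the highest astrocyte sum of all samples (1998), and the averaged Pvalb pair had an oligodendrocyte sum of 1305 against 309 to 344 in the other Pvalb samples. That pair also had an endothelial sum of 125 against 10.9 to 17.2 and an excitatory neuron sum of 25.3 against 469.8 to 531 in the others. Whether these cell contents had a part in the differences described below was not tested.

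**Figure D2:**
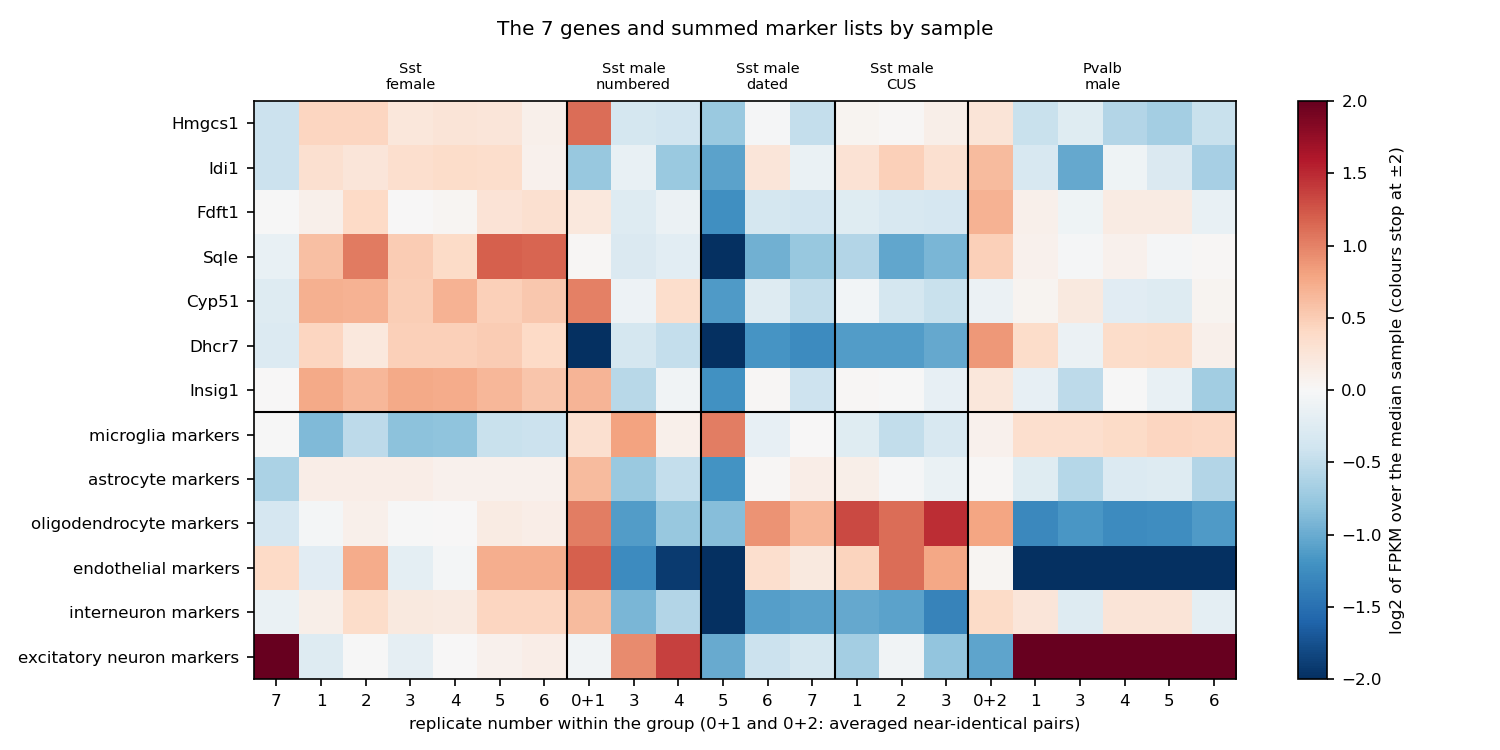
The 7 genes (upper rows) and the summed FPKM of 6 marker lists (lower rows) in each sample (columns, by group and replicate), coloured by log2 of the value over the median sample, with colours stopping at 2 in either direction. Female replicate 7 and dated male replicate 5 are low in all 7 genes relative to their groups, with astrocyte sums of 831 and 561 FPKM.

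The question of the first comparison was whether the genes differ between non-stressed female and male Sst samples. Against the 3 numbered males, all 7 genes had a higher mean on the log scale in females, but none passed the threshold of 0.05 on the adjusted p from limma (two-sided, Benjamini-Hochberg over all genes tested). Over all 14443 genes tested 493 passed, 3.41%, and 253 of them (1.75%) were higher in females. The median log2 fold change was 0.56 over the 7 genes and 0.05 over all genes. Unadjusted p fell under 0.05 for Dhcr7, Idi1, Sqle and Insig1, 4 of 7, where 24.3% of all genes did so. Dhcr7 had the largest difference, with a log2 fold change of 1.26 ± 0.33 (SE, n = 7 and 3) and an adjusted p of 0.0559 by limma. It was followed by Sqle (0.81 ± 0.27, adjusted p = 0.103 by limma) and Idi1 (0.67 ± 0.21, adjusted p = 0.0879 by limma). The Dhcr7 value leaned on the averaged male pair, at 6.01 FPKM against 22.1 and 20.3 in the other numbered males. Dhcr7 was not called either with that pair or without it. Insig1 had a log2 fold change of 0.56 with a 95% confidence interval of 0.01 to 1.10, and Fdft1 one of 0.20 (-0.15 to 0.56). Hmgcs1 (0.05, interval -0.61 to 0.71) and Cyp51 (0.06, interval -0.50 to 0.61) had differences near 0, with intervals that still allow a change of either sign. When every library was scaled to a common total without small RNA genes, the median of all genes moved from 0.05 to 0.25 and that of the 7 from 0.56 to 0.82, 581 of 713 called genes were higher in females, and Dhcr7 and Sqle passed. In 1 of 7 genes, Dhcr7, the groups did not overlap, where 5.26% of all genes had every female above every male.

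**Figure D3:**
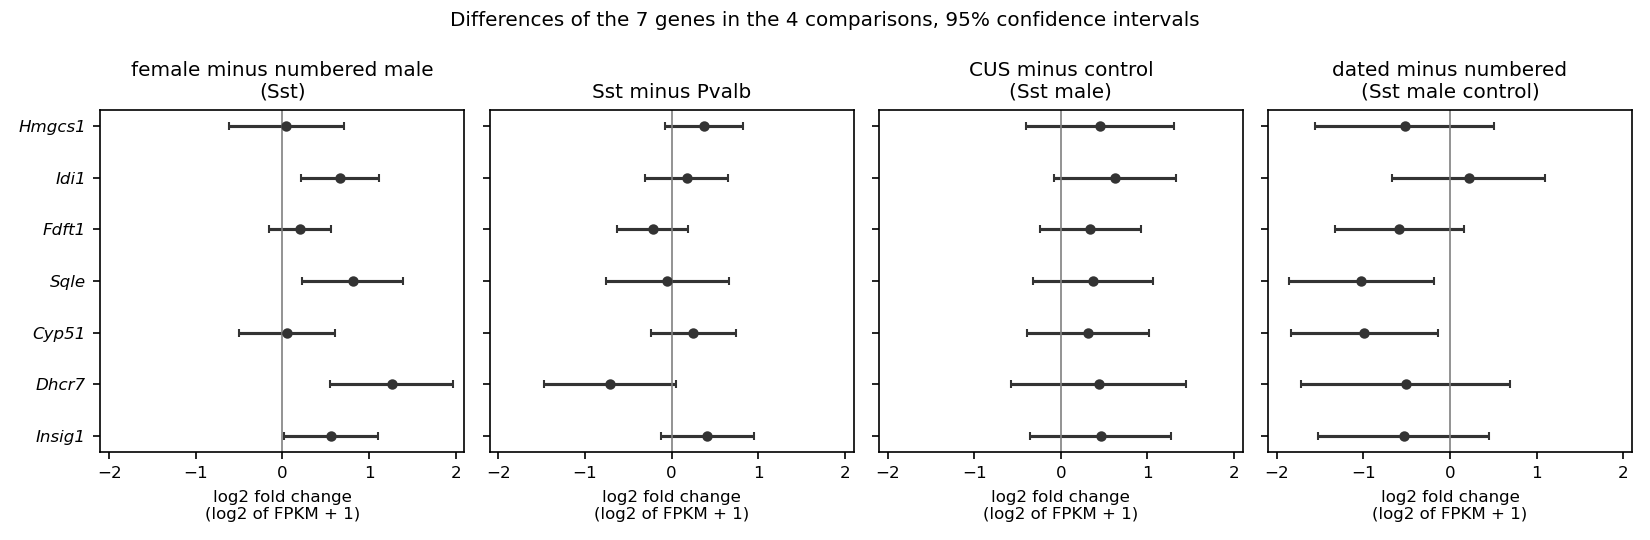
Log2 fold change on the log2(FPKM + 1) scale (x axis) with its 95% confidence interval for the 7 genes (y axis) in the 4 comparisons. The interval clears 0 for Idi1, Sqle, Dhcr7 and Insig1 in the sex comparison and for Sqle and Cyp51 between kinds of title, and for no gene between lines or after CUS. No adjusted p was under 0.05.

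The calls changed with the libraries that entered the comparison, males and females alike. With all 6 male samples 3 genes were higher in females by the same test: Dhcr7 (log2 fold change 1.52 ± 0.28, adjusted p = 0.00958 by limma), Sqle (1.32 ± 0.30, adjusted p = 0.0174) and Insig1 (0.83 ± 0.25, adjusted p = 0.0446), while 11.7% of all genes passed, 6.28% in this direction. Against the 3 dated males alone 6 of 7 genes were higher in females, with log2 fold changes from 0.57 (Hmgcs1) to 1.83 (Sqle), and Idi1 had 0.45 with an interval of -0.07 to 0.98. In that contrast 41.5% of all genes passed, 22.4% in this direction, and sex and kind of title cannot be told apart in it. Without female replicate 7 the comparison with the numbered males called Dhcr7 (1.36), Idi1 (0.76) and Sqle (0.94), in log2, with 1787 genes of the whole table past the threshold, 6.56% of all genes being called higher in females. Leaving out the averaged male pair called Insig1 (0.88) and not the others, with 3.59% of all genes called in this direction. Leaving out male replicate 4 called Dhcr7 (1.51), with 3.8% of all genes called in this direction. Leaving out male replicate 3 called none, with 100 genes past the threshold in all, turned Hmgcs1 and Cyp51 to -0.19 each and took the median of the 7 from 0.56 to 0.28. Marker lists moved in the same comparison: 4 of 11 microglia markers were lower in females (Cx3cr1, Csf1r, C1qb and Ctss), 2 of 8 endothelial markers (Cldn5 and Cdh5) and 1 of 10 oligodendrocyte markers (Mobp) were higher, and 0 of 8 astrocyte markers passed, with 8 of 8 higher in mean. Microglia sums were 3034 to 5571 FPKM in the females and 6024 to 9772 in the numbered males, and their part in the result was not tested.

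**Figure D4:**
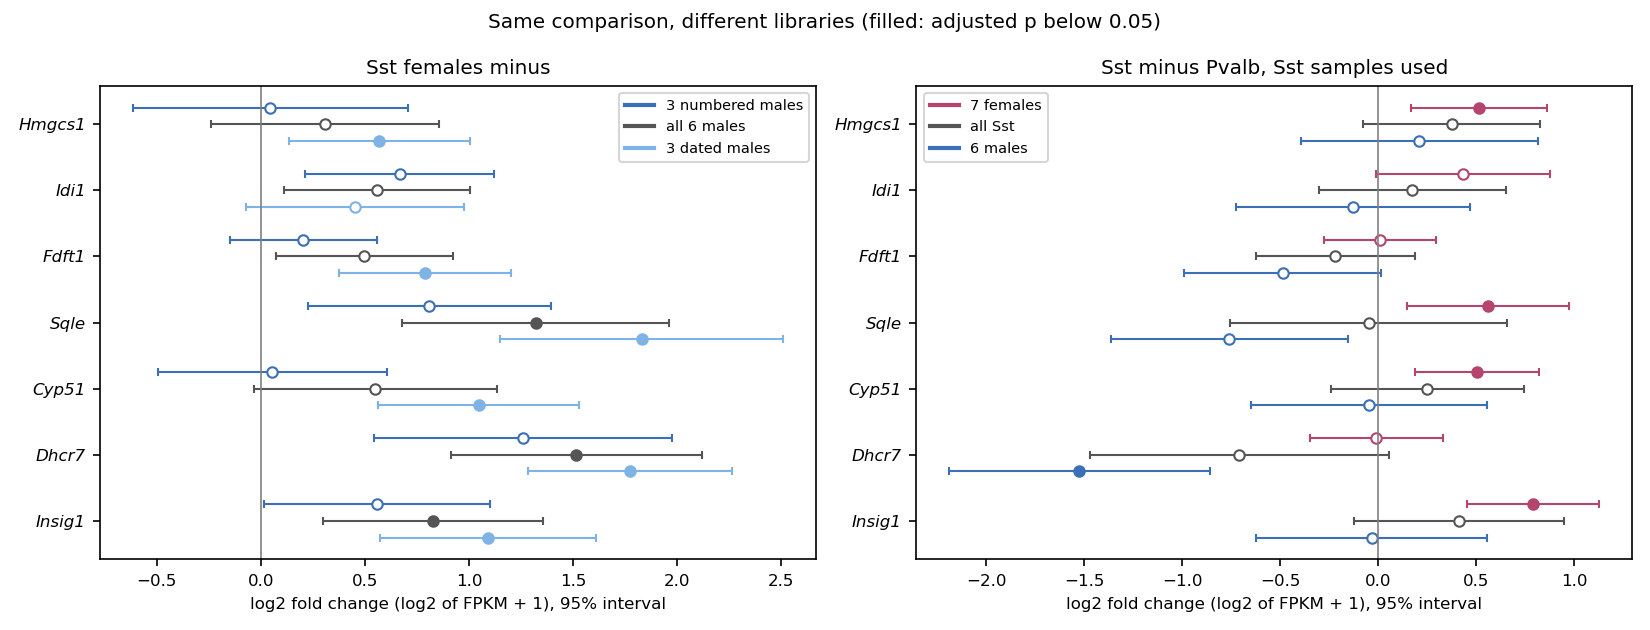
Log2 fold change on the log2(FPKM + 1) scale with its 95% confidence interval (x axis) for the 7 genes (y axis) when other libraries enter the same comparison, filled where the adjusted p is below 0.05. At left, the female excess over males grows from the numbered to the dated males in 6 of 7 genes, all but Idi1. At right, Dhcr7 moves from -0.01 with females only to -1.52 with males only.

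The rest of the pathway was read from 15 further enzyme genes. Against the numbered males 1 of 15 passed, Sc5d, which makes 7-dehydrocholesterol just before the Dhcr7 step (log2 fold change 0.84 ± 0.20, adjusted p = 0.0437 by limma, 23.3 against 12.7 FPKM). The median over the 15 was 0.26, with 11 higher and 4 lower. With all 6 males 6 of 15 were higher in females and 0 lower, the largest being Tm7sf2 (1.83), Hsd17b7 (1.23) and Lss (1.09), which encode a sterol reductase, a ketosteroid reductase of the demethylation steps and the lanosterol synthase. Against the dated males 12 of 15 were higher and 1 lower, with Ebp, the sterol isomerase, at -0.88. Sc5d had 0.84 against the numbered and 0.85 against the dated males, whereas Nsdhl, a sterol dehydrogenase, went from 0.25 to 1.85. Tm7sf2 had 1.82 against the numbered males (adjusted p = 0.0945 by limma), a value that rested on the averaged male pair, listed at 0, and was 0.77 without it. Without numbered male replicate 3 Sc5d had 0.65 and an adjusted p of 0.120 by limma. Of 6 genes of SREBP control (the SREBP genes Srebf1 and Srebf2, their escort Scap, the proteases Mbtps1 and Mbtps2, and Insig2) 0 passed against the numbered males, with a median of 0.03. Srebf2 had 0.97 (adjusted p = 0.0635 by limma) and Srebf1 0.75 (adjusted p = 0.154 by limma). Mbtps1, Mbtps2, Scap and Insig2 had 0.06, -0.004, -0.21 and -0.24. Without female replicate 7, 2 of these 6 were called higher in females and 0 lower, where 6.56% of all genes were called higher. Among 8 genes of uptake and trafficking 0 passed (median -0.07), of 11 tested genes of efflux 0 passed (median -0.01), and of 9 SREBP-driven genes of fatty acid synthesis 0 passed (median 0.33), all by limma. At an unadjusted p under 0.05 these 4 lists held 2, 2, 0 and 2 genes.

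**Figure D5:**
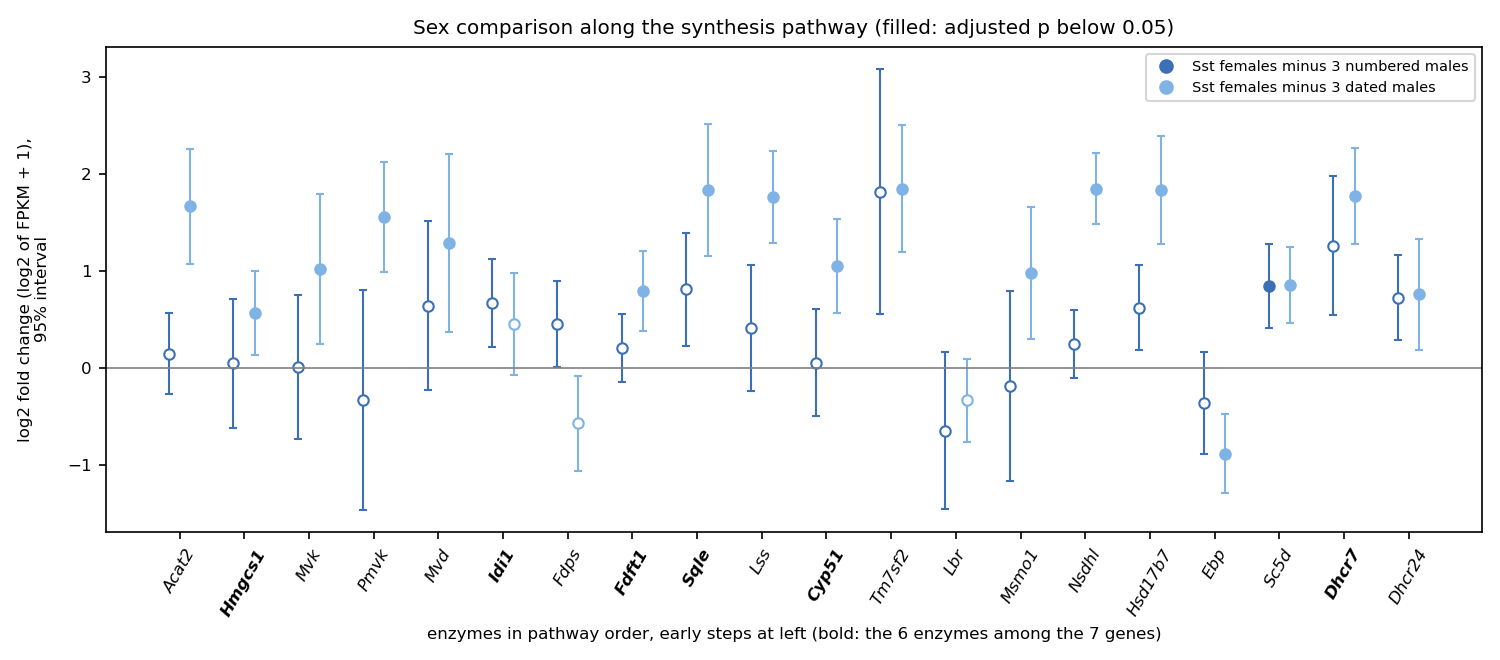
Log2 fold change (y axis, log2(FPKM + 1) scale, 95% confidence interval) of female over male Sst samples for 20 enzymes in pathway order (x axis; Ggps1, on a side branch, is not drawn), against the 3 numbered males and the 3 dated males, filled where the adjusted p is below 0.05. Sc5d is the only filled point against the numbered males, and the values against the dated males lie above 0 for all but Fdps, Lbr and Ebp.

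The second comparison asked whether the genes differ between the lines, with 13 Sst samples of both sexes against 6 Pvalb males. None of the 7 passed, while 7.8% of 14524 genes did, and 0 of 7 had an unadjusted p under 0.05 (25.1% of all genes). Log2 fold changes of Sst over Pvalb ran from -0.71 (Dhcr7) to 0.41 (Insig1), with a median of 0.17 against 0.00 over all genes. Dhcr7 averaged 25.2 FPKM in Sst and 36.1 in Pvalb (log2 fold change -0.71 ± 0.37, interval -1.47 to 0.05). Hmgcs1 had 0.37 (-0.08 to 0.83), Cyp51 0.25 (-0.24 to 0.74), Idi1 0.17 (-0.30 to 0.65), Sqle -0.05 (-0.76 to 0.66) and Fdft1 -0.22 (-0.63 to 0.19). The groups overlapped in 7 of 7 genes.

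Other calls were made when Sst samples of 1 labelled sex entered, which also changed the kinds of title, the number of samples and the cell contents. With the 7 females only, 4 of 7 genes were higher in Sst: Insig1 (log2 fold change 0.79 ± 0.16, adjusted p = 0.00304 by limma), Sqle (0.56 ± 0.19, adjusted p = 0.0459), Hmgcs1 (0.52 ± 0.16, adjusted p = 0.0315) and Cyp51 (0.51 ± 0.15, adjusted p = 0.0225). In this contrast 25.1% of all genes passed, 12.9% in that direction, and by the labels sex and line cannot be told apart. Without the 3 Pvalb samples that carry Xist against their label, 1 of 7 was called, Insig1 (0.90 ± 0.21, adjusted p = 0.0256 by limma), Sqle, Hmgcs1 and Cyp51 stood at 0.51, 0.31 and 0.42, and 10.7% of all genes passed. With all Pvalb samples, Dhcr7 and Fdft1 differed by -0.01 (interval -0.35 to 0.33) and 0.01 (-0.28 to 0.30). With the 6 males only, 1 of 7 was called, Dhcr7, lower in Sst by 1.52 on the log2 scale (-1.52 ± 0.31, adjusted p = 0.0295 by limma; 3.41% of all genes passed), and Sqle stood at -0.76 (adjusted p = 0.131). Without the Pvalb samples that carry Xist, Dhcr7 had -1.49 ± 0.44 and was not called (adjusted p = 0.40 by limma), nor was any other of the 7, and 0.0905% of all genes passed. With the 3 numbered males no gene of the set was called, 13 genes of 14253 passed in all, and Dhcr7 had -1.27, with each of the 3 below each Pvalb sample (3.55% of all genes lay so). Other enzymes of the pathway showed 0 of 15 called with all Sst samples (median 0.00, 1 with an unadjusted p under 0.05), and 0 passed among the genes of SREBP control, uptake, efflux and fatty acid synthesis, of which 0, 2, 0 and 2 had an unadjusted p under 0.05 by limma. With females only, Hsd17b7 (0.95) and Acat2 (0.80), a thiolase at the start of the chain, were higher and 0 were lower. Of the uptake genes in that contrast, the lipoprotein receptors Vldlr (0.84) and Lrp8 (0.63) were higher and Npc2 (-0.70) and Stard4 (-0.87), which move cholesterol inside cells, were lower in Sst. Between the lines, with all Sst samples, 7 of 8 endothelial markers, 2 of 10 oligodendrocyte markers and 1 of 8 astrocyte markers were higher in Sst, and 4 of 6 excitatory neuron markers, 1 of 11 microglia markers and 2 of 10 interneuron markers (Sst and Pvalb) were lower. Endothelial sums were 17.2 to 282 FPKM in the Sst samples and 10.9 to 125 in the Pvalb samples, and the part of these cells in the result was not tested. In the contrast with females only, in which 4 of the 7 were called, 6 of 10 oligodendrocyte, 4 of 8 astrocyte and 7 of 8 endothelial markers were higher in Sst, and 9 of 11 microglia markers and 3 of 6 excitatory neuron markers were lower. Their part in those 4 calls was not tested either.

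The third comparison addressed chronic stress, with 3 CUS males against 6 non-stressed Sst males and the kind of title in the fit, so that the estimate rests on the 3 dated controls. No gene of the set passed, and 1 of 14319 genes did (0.00698%). At an unadjusted p under 0.05 there were 0 of the 7 and 2.33% of all genes. All 7 had a higher mean after CUS, with log2 fold changes of 0.63 for Idi1 (interval -0.08 to 1.33), 0.46 for Insig1 (-0.36 to 1.28), 0.46 for Hmgcs1 (-0.40 to 1.31), 0.43 for Dhcr7 (-0.58 to 1.45), 0.37 for Sqle (-0.32 to 1.06), 0.34 for Fdft1 (-0.24 to 0.92) and 0.32 for Cyp51 (-0.39 to 1.02). The median of 0.43 stood against 0.00 over all genes. Every CUS sample was above every dated control for Hmgcs1, Idi1, Fdft1 and Dhcr7, 4 of 7, where 9.33% of all genes lay so. These differences leaned on dated male replicate 5, the lowest sample in all 7 genes: without it the median was 0.13 and the largest value 0.30 (Hmgcs1). Replicate 5 was also the only dated control whose title begins with the same letters and digits as those of the 3 CUS samples. Without it, treatment and this part of the title cannot be told apart. The CUS samples had astrocyte sums of 1176 to 1396 FPKM and microglia sums of 3968 to 4732, and the dated controls 561 to 1413 and 5014 to 11321. Their oligodendrocyte sums were 1631 to 2090 FPKM against 419 to 1403 in the dated controls, and their endothelial sums 167 to 266 against 17.2 to 155. Neither these sums nor the microglia sums overlapped between the groups. All 10 oligodendrocyte and all 8 endothelial markers had a higher mean after CUS, with median log2 fold changes of 0.94 and 1.51, larger than that of the 7 genes, although 0 of them passed by limma (2 and 1 at an unadjusted p under 0.05). All 11 microglia markers had a lower mean (median -0.63) and all 8 astrocyte markers a higher one (median 0.37), and 0 of them passed. Whether these cells had a part in the result was not tested.

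Against the 3 numbered controls, the same CUS samples showed another picture, in which treatment and kind of title cannot be told apart. Sqle was below all of them (log2 fold change -0.65, adjusted p = 0.0756 by limma), Cyp51 had -0.67 and Idi1 lay above all of them, while 16.1% of all genes passed. Of all genes, 21.4% lay below and 23.3% above all numbered controls in every CUS sample. Of 15 further enzymes 0 passed in the fit with the kind of title, with 14 higher, 1 lower and a median of 0.38. Uptake genes had 0 of 8 called (median 0.10), SREBP control 0 of 6 (median -0.15), efflux 0 of 11 (median -0.06) and fatty acid synthesis 0 of 9 (median 0.49), all by limma, with 1 gene of efflux and 0 of the others at an unadjusted p under 0.05.

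The last comparison set the 3 dated against the 3 numbered non-stressed Sst males, groups that carry the same labels for sex, line and treatment. None of the 7 passed, and 4.11% of 14230 genes did. In the dated males 6 of 7 had a lower mean, with a median log2 fold change of -0.53 against 0.00 over all genes. Without dated male replicate 5 that median was -0.31. Sqle had -1.02 ± 0.36 (adjusted p = 0.145 by limma) and Cyp51 -0.99 ± 0.36 (adjusted p = 0.159), both with an unadjusted p under 0.05 as for 23.6% of all genes. Fdft1 (-0.59), Insig1 (-0.53), Hmgcs1 (-0.52) and Dhcr7 (-0.51) had intervals that include 0, and Idi1 had 0.21 (-0.67 to 1.10). Dated samples were below all numbered ones for Fdft1, Sqle and Cyp51, 3 of 7, where 17% of all genes lay so. The ratio of Sqle to Idi1 FPKM within a sample was 0.792 to 1.18 in the dated and 0.637 to 0.985 in the CUS males, and 1.66 to 3.12 in the numbered males. In the females it was 1.85 to 3.84 and in the Pvalb males 1.64 to 3.63. Of the other enzymes Nsdhl was lower in the dated males (-1.60 ± 0.31, adjusted p = 0.0385 by limma), the only one of 15 called. Among the other lists Apoe, the main apolipoprotein of the brain, was higher (2.02, adjusted p = 0.0411, 1807 against 430.4 FPKM), as was Lrpap1 (1.18), a chaperone of lipoprotein receptors, and Lipa (-1.32), which frees cholesterol in lysosomes, was lower.

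The genes did not all follow a common profile. Over the 22 samples, Pearson's r between a gene's log2(FPKM + 1) and the mean standardised profile of the 7, of which each is a part, was 0.92 for Insig1, 0.90 for Sqle, 0.87 for Fdft1, 0.83 for Cyp51, 0.70 for Hmgcs1, 0.67 for Dhcr7 and 0.60 for Idi1. Over the 16 numbered samples Dhcr7 fell to 0.36 and Idi1 rose to 0.81. Outside the set, the genes most like this profile over 22 samples included Rorb (0.96), Slc4a4 (0.96), Slco1c1 (0.96) and Hapln1 (0.96). Over the 16 numbered samples they included Znrf3 (0.97), Rorb (0.97), Slc4a4 (0.97) and Ppap2b (0.95). None of these is an enzyme of the pathway. Among the 15 further enzymes r ran from -0.77 (Ebp) to 0.87 (Hsd17b7) over 22 samples, and Srebf2, the gene of SREBP-2 itself, had 0.29. The samples share groups, title kinds and cell contents, so these values describe the table and carry no p.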

How the data were processed

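The deposited table held FPKM per gene for 24 libraries. According to the submitters' processing notes, the authors used TopHat2, Cufflinks and Cuffdiff with mm10, whereas the study's methods name TopHat2, then HISAT2 and stringTie, and ComBat for batch effects. Whether ComBat was applied to the deposited FPKM is not stated, and total counts per library are not known. The labels give 30 samples, of which 6 were not analysed here.

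The 2 near-identical library pairs were averaged. For each comparison, limma 3.58.1 (R 4.3.3) was fitted to log2(FPKM + 1) of every gene whose mean exceeded 0.4 FPKM in its samples, with a trended, robust eBayes step. Tests were two-sided, p-values were adjusted by Benjamini-Hochberg across the whole fit, and 0.05 was the limit. A fold change on this scale understates changes of low genes. The fit was tested on simulated data. The 7 genes and all lists were chosen with earlier results of these data known. Of the other lists, genes past the threshold were named, at most 3 per direction, and marker genes mostly by count. The 5 genes with the highest Pearson r to the mean standardised profile of the 7 were named as a description, apart from 1 gene, and 1 marker gene was left out of the marker lists; these are not reported here. Promoter windows and gene positions came from RefSeq (GRCm38.p6), with windows for 5 and positions for 7 of the 7 genes. Alternatives covered filters, pseudocounts, scaling, averaging and the choice of libraries, and those that leave out female replicate 7 or 1 averaged pair, or use only female Sst samples against Pvalb, or Sst samples of 1 sex against the Pvalb libraries without Xist, were added after the data were seen. Replicate numbers shared between groups gave correlations of deviations of -0.0486 to 0.0496 between female and male samples.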

Additional observations from a re-analysis of the deposited data

Results flagged for a closer look

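Within groups of 6 or 7 samples, 6 of 21 combinations of gene and group had 1 sample whose distance to its nearest neighbour was a large part of the whole range (Dixon's test at 95%, which chance meets in about 1 of 20 independent groups). The combinations were not independent: the 6 came from 3 samples, and the non-stressed males held both kinds of title. The count therefore cannot be set against that rate. Female replicate 7 lay below the other 6 females in Idi1 (9.87 FPKM, others 14.1 to 17.0), Cyp51 (16.2, others 26.8 to 31.6) and Insig1 (41.0, others 59.6 to 69.1). The averaged male Sst pair lay above the other 5 non-stressed males in Hmgcs1 (74.6 FPKM, others 20.7 to 34.0). The averaged Pvalb pair lay above the other 5 Pvalb samples in Fdft1 (73.5 FPKM, others 40.8 to 50.9) and Sqle (33.7, others 23.7 to 25.5). The 3 samples also differ from their groups in marker sums, as given above, and the part of this in their values was not tested.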

How the results depend on the processing

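The depth of each library in reads is unknown, groups of 3 samples limit precision, and no gene of the set was called in the main comparisons by line, CUS or kind of title. For sex, members called went from 0 to 2 with a common total without small RNA genes (Dhcr7, Sqle), 3 without averaging of near-identical libraries (Dhcr7, Idi1, Sqle), 3 with all males and 6 with dated males only. With the common total 581 of all 14530 genes tested were called higher in females. Without averaging, 1312 of 14367 were, in a fit that counts both libraries of the near-identical male pair. Leaving out each numbered male or female replicate 7 gave 0 to 3, the 3 without female replicate 7. For line, it went from 0 to 1 with male and 4 with female Sst samples only, and leaving out female replicate 7 or either averaged pair, the 3 left out there, gave 0. The 4 went to 1 and the 1 to 0 without the Pvalb libraries that carry Xist. For CUS and kind of title it stayed at 0 under every alternative run.

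Signs turned as follows, in log2. For sex, without averaging Hmgcs1 was -0.20 and Cyp51 -0.087, and leaving out single samples gave -0.20 to 0.53 for Hmgcs1 (below 0 without numbered male replicate 3 or 4) and -0.19 to 0.34 for Cyp51 (below 0 without replicate 3). For line, male Sst samples only gave Idi1 -0.13, Cyp51 -0.045 and Insig1 -0.033, and numbered males only gave Idi1 -0.23. Female Sst samples only gave Fdft1 0.010 and Sqle 0.56. Without the Pvalb libraries that carry Xist, females only gave Fdft1 0.0045, Sqle 0.51 and Dhcr7 0.031, and males only gave Idi1 -0.079 and Cyp51 -0.13. Sqle was 0.039 with quantile normalization and 0.32 with numbered Sst samples, and leaving out samples gave -0.046 to 0.024, above 0 without the averaged Pvalb pair. For CUS, numbered controls only gave Hmgcs1 -0.066, Fdft1 -0.25, Sqle -0.65, Cyp51 -0.67, Dhcr7 -0.078 and Insig1 -0.074. Controls of both sexes gave Fdft1 -0.22, Sqle -0.85, Cyp51 -0.48, Dhcr7 -0.64 and Insig1 -0.25. All male controls without the covariate gave Sqle -0.14 and Cyp51 -0.18. For kind of title, leaving out single samples gave Idi1 -0.044 to 0.55, below 0 without dated male replicate 6. The cause of these changes was not tested.

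Genes called over the whole table also moved: for sex from 493 to 2549 without averaging, 1699 with all males, 6032 with dated males only and 100 to 1787 when single samples were left out. For line it moved from 1133 to 3638 with females only, 491 with males only, 13 with numbered males, 14 without the Pvalb libraries that carry Xist, 2130 without the averaged Pvalb pair and 1910 without the averaged male pair. For CUS it moved from 1 to 2309 with numbered controls only and 6 with controls of both sexes, with 1 to 3 when samples were left out. For kind of title it moved from 585 to 1111 with quantile normalization, 1769 without averaging, 381 without the filter on low values and 54 to 1962 when samples were left out.

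Same-numbered females and males (3 pairs) deviated from their groups with correlations of -0.0486 to 0.0496, and the 15 pairs with other numbers with -0.0460 to 0.0807. So few pairs cannot show whether replicate numbers pair the samples. With the replicate number as a block, 11 genes were called by sex and 1190 by line, with 0 of the 7 in either, and the block turned Fdft1 to 0.0031 and Sqle to 0.48 between lines. No paired analysis was made for CUS or kind of title, whose dated titles hold no replicate number.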
